A study of Mus musculus with 12 samples.

Results

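The genes described here are the solute carriers, the membrane proteins that move sugars, amino acids, ions, metals, nucleotides and metabolites across cell and organelle membranes, in mouse testis. They were taken as the genes whose platform symbol starts with Slc, a family number and the letter a, or with Slco, a rule that used no measured value. It found 200 genes on 269 of 20355 probes, out of 16255 features in all. Of the 200 genes, 25 were mitochondrial carriers of the Slc25 family, 125 belonged to families of the plasma membrane, 47 to families of other or several membranes, and 3 carry such a symbol without naming a transporter (Slc9a3r1, Slc9a3r2 and Slc4a1ap). Genes with values on 3 or more of the 4 arrays in every comparison were tested, and 178 of the 200 met this.

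Testis RNA of males on a Castaneus background was compared on 12 two-colour arrays, each channel holding a pool of 3 animals. The pools came from Wobbler mice that carry a modifier (wr/mod in the design text), from Wobbler mice (wr/wr) and from wildtype mice. The Wobbler allele is a recessive missense change in Vps54, whose protein helps to dock vesicles that return from endosomes to the Golgi; homozygous males are infertile, and all of their cells carry it. The modifier is not described further in the labels, no age is given, and nothing says whether the arrays of a comparison came from separate pools, so the p-values rest on array-to-array spread, possibly technical. The 3 pairs, Wobbler over wildtype, modifier over wildtype and modifier over Wobbler, were each hybridised on 4 arrays, with the dyes exchanged on replicates 3 and 4.

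Solute carriers are named by family, and the family usually fixes the kind of substrate. Most Slc25 proteins sit in the inner mitochondrial membrane, and they exchange citrate, phosphate, ADP and ATP, amino acids and cofactors between matrix and cytosol. In the testis, Sertoli cells take up glucose through plasma membrane carriers and hand lactate to the germ cells through monocarboxylate transporters, while spermatids and sperm carry sugar, carnitine, bicarbonate and ion transporters of their own. Plasma membrane carriers also supply amino acids and take part in the barrier between blood and germ cells.

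All values are log2 ratios of the first-named genotype over the second, after the ratios of dye-exchanged arrays were multiplied by -1. The deposited values do not state which channel is on top, so the direction is likely, from the array titles and the usual dye order, and not settled. The ratios hold no level, so the tissue could not be checked against marker levels and carriers could not be ranked by abundance. Between 18325 and 19584 spots per array were usable. Replicate 2 of Wobbler over wildtype stood apart, with an SD of deposited ratios of 1.61 against 0.62 to 0.99 on the other 11 arrays, so a carrier's fitted ratio in that comparison is also given without it where this turned its sign or moved it by over 1.5 times. The median over all tested features lay between 0.04 and 0.19 on replicates 1 and 2 of the 3 comparisons and between -0.23 and -0.03 on replicates 3 and 4, a shift that follows the dye orientation. In bulk tissue, fewer cells of a type and less RNA per cell cannot be told apart.

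No solute carrier passed an adjusted p of 0.05 (limma, Benjamini-Hochberg over 14729 features) in any of the 3 comparisons. The count was 0 of 178 in Wobbler over wildtype, where 0.306% of all features passed (0.122% as higher, 0.183% as lower), 0 of 178 in modifier over wildtype, where 0.733% passed (0.0339% as higher, 0.699% as lower), and 0 of 178 in modifier over Wobbler, where 0.414% passed (0.115% as higher, 0.299% as lower). At an unadjusted p under 0.05 there were 22 carriers in Wobbler over wildtype (10 higher, 12 lower), or 12.4%, against 15.7% of all features. In modifier over wildtype there were 8 (4 higher, 4 lower), or 4.49%, against 7.33%, and in modifier over Wobbler 15 (10 higher, 5 lower), or 8.43%, against 11.5%. In each comparison the carriers' share was somewhat below that of all features. That difference was not tested, and carriers also had a larger median SE, given below. The order of the 3 counts depended on the fit, which shares 1 spread per feature over all 12 arrays. With the 4 arrays of each comparison fitted alone, the counts were 5 of 191, 19 of 194 and 10 of 183 carriers. The share of all features under that fit is not given. The smallest adjusted p of a carrier was 0.0829, for Slc30a2 in Wobbler over wildtype.

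Few carriers kept 1 sign on all 4 arrays of a comparison. This held for 27 carriers (10 positive, 17 negative) in Wobbler over wildtype, or 15.2%, the same share as the 15.2% of all features (5.44% positive, 9.72% negative). It held for 31 (16 positive, 15 negative) in modifier over wildtype, or 17.4% against 18.7% (8.53% positive, 10.2% negative), and for 23 (16 positive, 7 negative) in modifier over Wobbler, or 12.9% against 16.3% (10.6% positive, 5.77% negative). The median log2 ratio of the carriers was 0.045 for Wobbler over wildtype, 0.018 for modifier over wildtype and 0.13 for modifier over Wobbler, beside -0.0070, 0.012 and 0.078 for all features.

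Missing the threshold does not show that the carriers were alike in the 3 genotypes. The 95% interval of the fitted ratio, taken gene by gene, lay wholly within a 2-fold change for 104 of 178 carriers in Wobbler over wildtype, for 124 in modifier over wildtype and for 113 in modifier over Wobbler. It lay within a 1.5-fold change for 55, 66 and 58. For the others the interval reached beyond these bounds, so a change of that size could not be set aside with these arrays. The median SE of a carrier was 0.25, 0.25 and 0.24, beside 0.21 in each comparison for all features.

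**Figure D1:**
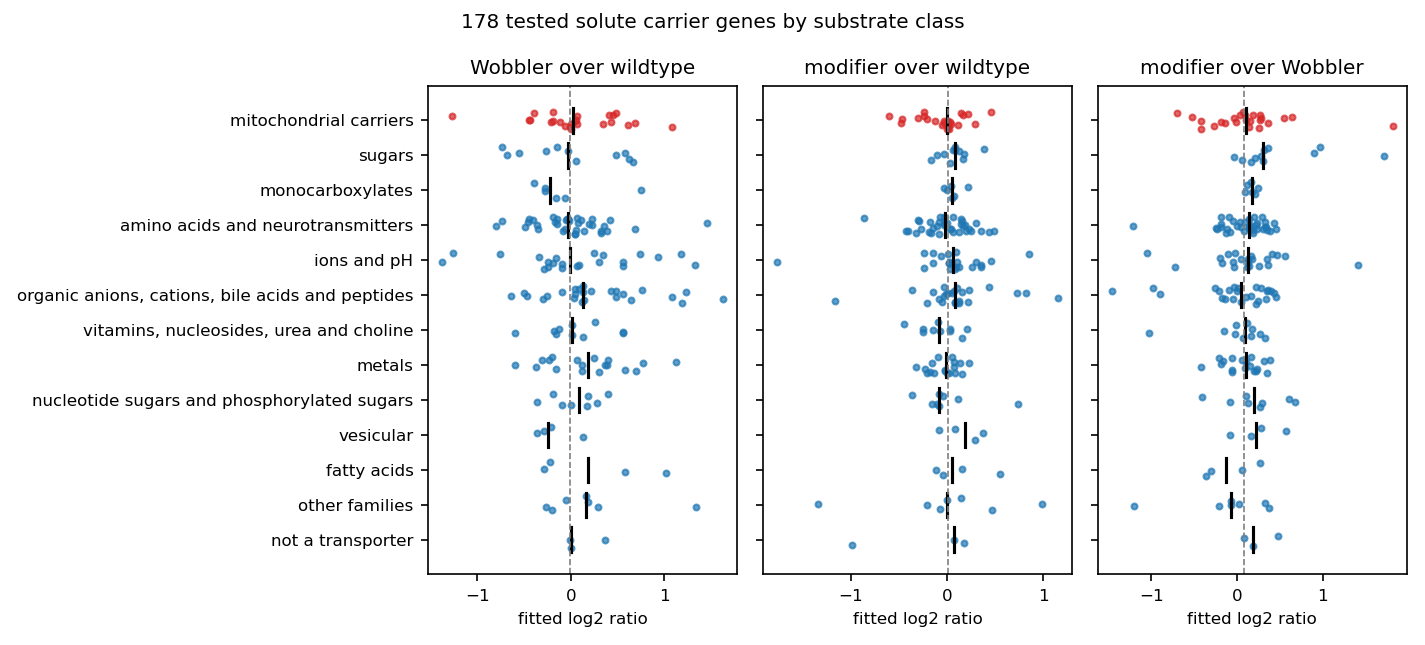
Fitted log2 ratio of each of the 178 tested solute carrier genes, 1 point per gene, by substrate class (rows) in the 3 comparisons (panels); black bars are class medians, the dashed line is the median of all features, and points are spread vertically only for visibility. The class medians lie between -0.25 and 0.30 and the single genes between -1.77 and 1.82.

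Among the mitochondrial carriers, 24 of 25 genes were tested, and 0 passed in any comparison. Slc25a1, the citrate carrier that exports citrate for acetyl-CoA in the cytosol, had the smallest SE of any tested carrier. For modifier over wildtype its 4 arrays read 0.42, 0.56, 0.36 and 0.47, a fitted ratio of 0.45 ± 0.10 (SE, n = 4 arrays; adjusted p 0.0893). In modifier over Wobbler they read 0.29, 0.44, 0.19 and 0.52, or 0.36 ± 0.10 (SE, n = 4; adjusted p 0.178). In Wobbler over wildtype they read -0.33, -0.46, -0.46 and -0.47, or -0.43 ± 0.10 (SE, n = 4; adjusted p 0.121). All 12 arrays thus had the sign of their comparison. It was positive in both modifier comparisons, which share the modifier genotype, and negative in Wobbler over wildtype.

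As fitted, the 3 ratios of Slc25a1 left a gap around the loop, which did not pass the threshold. Wobbler over wildtype plus modifier over Wobbler gave -0.07, against 0.45 measured directly for modifier over wildtype, a difference of -0.52 ± 0.17 (SE of the fit over 12 arrays), with an adjusted p of 0.628 over all features. Slc25a1 passed in modifier over wildtype with arrays scaled to equal spread (0.59, adjusted p 0.00946) and with array weights (0.46, adjusted p 0.00274), and in modifier over Wobbler when 2 genotype coefficients described all 12 arrays (0.54, adjusted p 0.0389). The model with 2 genotype coefficients makes the 3 ratios add up by design. It moved the ratio of modifier over Wobbler from 0.36 to 0.54, so this pass is no separate support.

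Slc25a3, which brings phosphate into the matrix for ATP synthesis, was negative on all 8 arrays with modifier RNA. It was at -0.26, -0.50, -0.52 and -0.61 in modifier over wildtype, or -0.47 ± 0.12 (SE, n = 4; adjusted p 0.152). For modifier over Wobbler it was at -0.41, -0.21, -0.38 and -0.69, or -0.42 ± 0.12 (SE, n = 4; adjusted p 0.188). For Wobbler over wildtype its arrays lay on both sides of 0, at 0.12, -0.06, 0.30 and -0.15, and the fitted ratio was 0.05 ± 0.12 (SE, n = 4), or 0.12 without replicate 2. Its loop closed within error: the indirect ratio was -0.37 against -0.47 directly, a difference of 0.10 ± 0.20 (SE). It passed in modifier over wildtype with equal spread (adjusted p 0.0167), with array weights (adjusted p 0.00551) and with 2 genotype coefficients (adjusted p 0.0481), and under the genotype coefficients also in modifier over Wobbler (adjusted p 0.0436).

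Slc25a5, an adenine nucleotide translocase that trades matrix ATP for cytosolic ADP, was at -0.60, -0.08, -0.54 and -0.89 in modifier over Wobbler, negative on every array, with a fitted ratio of -0.53 ± 0.16 (SE, n = 4; adjusted p 0.234). Across modifier over wildtype it was at -0.14, -0.21, -0.57 and 0.11, and in Wobbler over wildtype at 0.35, 0.46, -0.15 and -0.48, so that the arrays of these comparisons overlapped 0. Slc25a12, an exchanger of aspartate and glutamate, was also negative on all arrays of modifier over Wobbler, at -0.94, -0.52, -0.18 and -0.05 (-0.42 ± 0.17, SE, n = 4). Across Wobbler over wildtype it was positive on all arrays, at 0.12, 0.66, 0.76 and 0.39 (0.48 ± 0.17, SE, n = 4; adjusted p 0.227). Of Slc25a12, the arrays of modifier over wildtype had both signs, at -0.06, -0.29, 0.55 and -0.31.

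**Figure D2:**
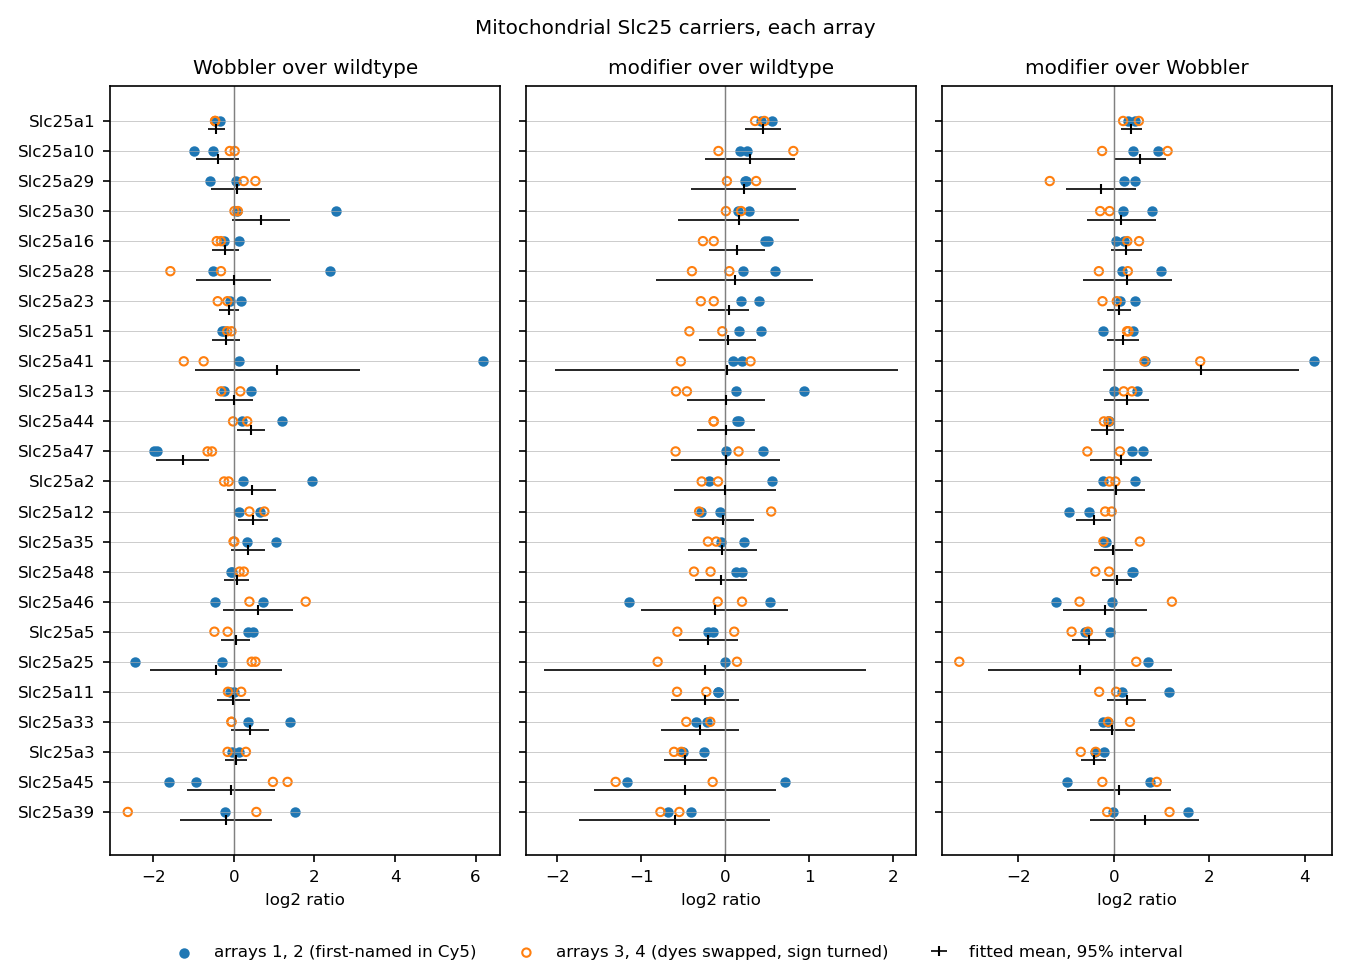
Log2 ratios of the 24 tested Slc25 genes (rows, ordered by the fitted ratio in modifier over wildtype) on each array of the 3 comparisons (panels, whose axes differ in range); filled points are replicates 1 and 2, open points the dye-exchanged replicates 3 and 4, and the black mark below them is the fitted mean with its unadjusted 95% interval. Slc25a1 and Slc25a3 have close-lying arrays, while Slc25a41 reaches 6.17 on replicate 2 of Wobbler over wildtype.

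The remaining Slc25 genes were read less evenly. Slc25a47, a carrier known mainly from liver, had the lowest ratio of the group in Wobbler over wildtype, -1.27 ± 0.29 (SE, n = 4; adjusted p 0.121). Its arrays stood at -1.91, -1.98, -0.65 and -0.54, all negative but split by dye orientation, and it was at 0.01 for modifier over wildtype and 0.14 for modifier over Wobbler. Slc25a39, needed for mitochondrial glutathione uptake, was negative on all arrays of modifier over wildtype, at -0.41, -0.69, -0.55 and -0.77. With the SE taken from the spread over all 12 arrays, the fitted ratio was -0.60 ± 0.51 (SE, n = 4). Slc25a33, a carrier of pyrimidine nucleotides, was negative on all of them too, at -0.30, and its 2 probes gave -0.35 and -0.25. Slc25a29, a carrier of basic amino acids, was positive on all of them, at 0.22. Slc25a46, a protein of the outer mitochondrial membrane that was chosen for this difference, was at 0.61, -0.13 and -0.19 in the 3 comparisons, with arrays of both signs in each.

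For several Slc25 genes the ratio in Wobbler over wildtype rested on replicate 2. Without that array Slc25a2 went from 0.45 to -0.0026, Slc25a33 from 0.41 to 0.080 and Slc25a25 from -0.44 to 0.32. Slc25a2 and Slc25a25 were named after their values were seen. Slc25a30 was at 2.54 on replicate 2 of Wobbler over wildtype and between 0.015 and 0.10 on the others, so that its ratio of 0.68 became 0.11 without that array. Slc25a41, a relative of the carriers that exchange ATP-Mg for phosphate, had the highest ratio of any carrier in modifier over Wobbler, 1.82 ± 0.92 (SE, n = 4), from arrays at 0.64, 4.20, 1.81 and 0.64. In Wobbler over wildtype it was at 1.08, and at -0.48 without replicate 2. Slc25a44, a carrier of branched-chain amino acids, was at 0.42 in Wobbler over wildtype and, from arrays all between -0.21 and -0.10, at -0.13 in modifier over Wobbler.

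The Slc25 genes were set beside the plasma membrane families, which were assigned by family and so hold some members known from membranes inside the cell, such as Slc15a4, Slc2a6, Slc2a8, Slc29a3, Slc36a1 and Slc38a9. The Slc25 median log2 ratio was 0.025 for Wobbler over wildtype, 0.0035 for modifier over wildtype and 0.10 for modifier over Wobbler, where the 110 tested plasma membrane genes had 0.042, 0.036 and 0.14. The difference of medians, Slc25 minus plasma membrane, was -0.017, -0.032 and -0.037. On single arrays it was -0.08, -0.07, 0.25 and -0.04 in Wobbler over wildtype, -0.13, 0.06, -0.12 and -0.06 in modifier over wildtype, and -0.12, -0.02, -0.06 and -0.08 in modifier over Wobbler, the only comparison with 1 sign on all arrays. These single-array differences averaged 0.017 ± 0.15, -0.062 ± 0.088 and -0.069 ± 0.040 (SD, n = 4 arrays each). Genes of a group share arrays and are no replicates, so no test is given.

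At an unadjusted p under 0.05, 4 of 24 Slc25 genes and 15 of 110 plasma membrane genes were counted in Wobbler over wildtype, or 16.7% and 13.6%, beside 15.7% of all features. In modifier over wildtype they were 2 and 2, or 8.33% and 1.82%, beside 7.33%. Across modifier over Wobbler they were 5 and 7, or 20.8% and 6.36%, beside 11.5%. The 5 Slc25 genes were Slc25a1 and Slc25a10 with positive ratios and Slc25a3, Slc25a5 and Slc25a12 with negative ones; Slc25a10, the dicarboxylate carrier, was at 0.55 ± 0.24 (SE, n = 4) and was chosen after its values were seen. The median SD of a gene over the 4 arrays was 0.48, 0.34 and 0.39 for Slc25 genes in the 3 comparisons, 0.61, 0.29 and 0.52 for plasma membrane genes, and 0.49, 0.30 and 0.40 for all features.

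**Figure D3:**
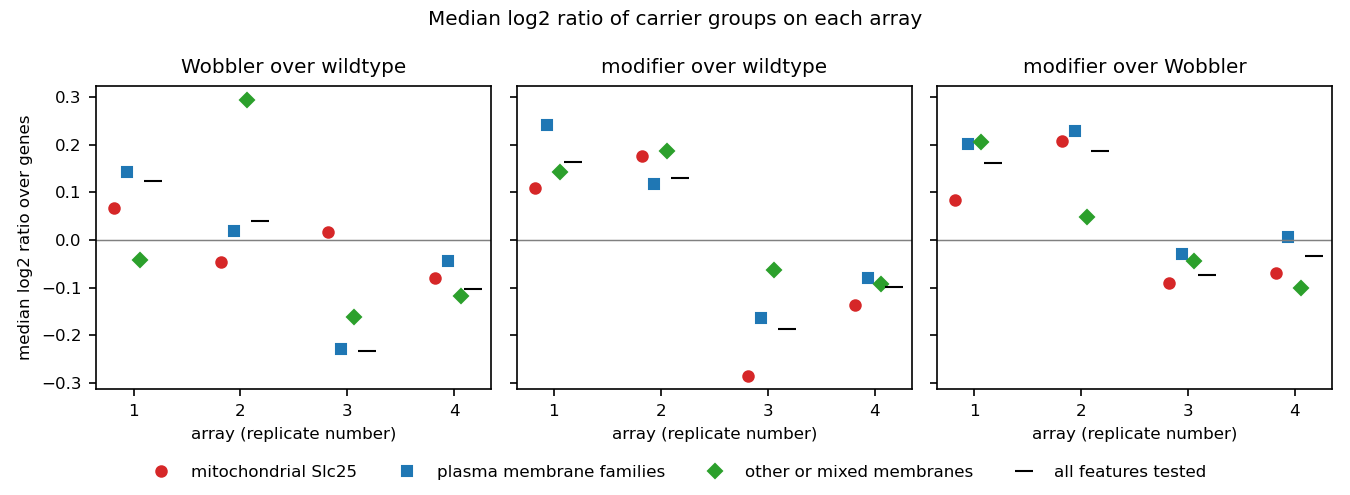
Median log2 ratio over the tested genes of 3 carrier groups and over all features (vertical axis) on each array (replicate number, horizontal axis) of the 3 comparisons (panels). The group medians differ from the median of all features by up to 0.25 on an array. On replicate 3 of Wobbler over wildtype the Slc25 median is 0.017, where that of all features is -0.23.

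Sugar carriers were the class with the largest median in modifier over Wobbler. Of 11 tested genes of Slc2 and Slc5, 10 had positive ratios there, with a median of 0.30, beside 0.078 for all features, of which 9073 of 14729 were positive, and 0 passed. Slc2a3, a high-affinity glucose transporter of germ cells and neurons, was positive on all arrays of modifier over wildtype, at 0.36, 0.54, 0.24 and 0.39, with a fitted ratio of 0.38 ± 0.13 (SE, n = 4; adjusted p 0.379). It was positive on all arrays of Wobbler over wildtype too, at 0.93, 0.45, 0.18 and 0.38, or 0.48 ± 0.13 (SE, n = 4; adjusted p 0.152). In modifier over Wobbler it was at 0.85, 0.45, -0.04 and 0.01, split by dye orientation. With array weights it passed in modifier over wildtype (0.37, adjusted p 0.0410).

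Slc2a8, a mainly intracellular hexose transporter abundant in testis, was at 0.23, -0.97, -1.08 and -0.89 in Wobbler over wildtype, 3 arrays low and replicate 1 above 0. The fitted ratio was -0.68 ± 0.17 (SE, n = 4; adjusted p 0.13). Without replicate 1 it was -0.93 with an adjusted p of 0.0248, the only carrier called when a single array was left out. It was at 0.06 in modifier over wildtype and at -0.04 in modifier over Wobbler. Slc2a5, the fructose transporter of sperm, was at 0.51, 0.46, -0.19 and 0.42 in modifier over Wobbler (0.30 ± 0.13, SE, n = 4), and its other fitted ratios were 0.05 and -0.03.

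The other sugar carriers spread widely. Slc2a9, known as a urate transporter, was at 1.14, 2.38, 0.22 and -0.14 in modifier over Wobbler, so its arrays overlapped 0 and were split by dye orientation. It had the smallest adjusted p of that comparison among carriers (0.90 ± 0.21, SE, n = 4, adjusted p 0.148). Around the loop, modifier over wildtype was 1.56 indirectly against -0.17 directly, a difference of 1.73 ± 0.41 (SE, adjusted p 0.487). Slc2a6, a lysosomal hexose transporter, was at 1.71 ± 0.58 in modifier over Wobbler (SE, n = 3). Slc2a4, the insulin-responsive glucose transporter, was positive on all 4 arrays of that comparison, at 0.06, 0.42, 2.49 and 0.92, with probes at 0.63 and 1.31. Slc2a2, the glucose transporter of liver and beta cells, was at 0.17 in modifier over wildtype, and Slc5a4b at 0.08.

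Of the 6 monocarboxylate transporters, Slc16a3 had the largest ratio in Wobbler over wildtype, at 0.75, or 0.14 without replicate 2. Slc16a3 was named after its values were seen. For Wobbler over wildtype 5 of 6 were negative, with a median of -0.22, beside 7485 of 14729 features, and in modifier over Wobbler 6 of 6 were positive, with a median of 0.17, beside 9073 of 14729 features; 0 passed in either. Slc16a1, which carries lactate and pyruvate, was at 0.23, -0.20, -1.15 and -0.46 in Wobbler over wildtype (-0.40 ± 0.16, SE, n = 4; adjusted p 0.29), with 1 array above 0. Slc16a6 was negative on all 4 arrays there, at -0.28, and Slc16a9, a carnitine transporter, at -0.27. The ratio of Slc16a8 in Wobbler over wildtype was -0.16, and it turned to 0.016 without replicate 2. For modifier over wildtype Slc16a9 was positive on all 4 arrays, at 0.21, with Slc16a6 at 0.05 and Slc16a8 at 0.07. For modifier over Wobbler Slc16a1, Slc16a6 and Slc16a8 were at 0.24, 0.18 and 0.21.

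Of the carriers of amino acids and neurotransmitters 36 of 41 were tested, with medians of -0.027, -0.020 and 0.14 in the 3 comparisons and 0 passing. Slc6a6, the taurine transporter, had the highest ratio with 1 sign on all arrays in Wobbler over wildtype, 1.46 ± 0.41 (SE, n = 4; adjusted p 0.161). Its arrays were uneven, at 0.18, 2.96, 2.31 and 0.39, and without replicate 2 the ratio was 0.97. Slc6a21 was negative on all 4 arrays there, at -0.12, -0.24, -0.62 and -0.42 (-0.35 ± 0.10, SE, n = 4; adjusted p 0.179). Across modifier over wildtype Slc6a21 was at -0.03 and in modifier over Wobbler at 0.14.

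In modifier over wildtype the amino acid carriers with 1 sign on all arrays lay on both sides of 0. On the negative side were Slc6a11, a GABA transporter, at -0.86, the glutamate transporter Slc1a2 at -0.43, Slc3a2, the heavy chain that brings amino acid exchangers to the surface, at -0.30, and the lysosomal proton-coupled Slc36a1 at -0.29. On the positive side were Slc1a4, which exchanges small neutral amino acids, at 0.48 and the glutamate transporter Slc1a6 at 0.35. The probes of Slc1a2 ran between -1.45 and 0.02, and those of Slc36a1 gave -0.92 and 0.12. Across modifier over Wobbler the glycine transporter Slc6a9 was positive on all arrays, at 0.29, 0.38, 0.21 and 0.34 (0.31 ± 0.16, SE, n = 4), and so was the serotonin transporter Slc6a4, at 0.34. Slc1a6 was at 0.43 there and Slc38a9, a lysosomal sensor of arginine, at 0.39.

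Ion and pH carriers had 22 of 27 genes tested and 0 passing, with medians of -0.010, 0.059 and 0.13. Slc26a1, a sulfate exchanger, was negative on all arrays of Wobbler over wildtype, at -0.72, -1.25, -0.68 and -0.35 (-0.75 ± 0.18, SE, n = 4; adjusted p 0.127), and at 0.01 in modifier over wildtype. Slc4a9, of the bicarbonate transporter family, was positive on all arrays of Wobbler over wildtype, at 0.20, 0.40, 0.14 and 0.45, and negative on all arrays of modifier over Wobbler, at -0.06, -0.08, -0.02 and -0.26. Both of its fitted ratios were small, 0.30 ± 0.10 and -0.11 ± 0.10 (SE, n = 4 each), and it was at 0.12 in modifier over wildtype.

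Slc12a8, of the family of cation and chloride cotransporters, had the lowest ratio of any carrier in modifier over wildtype, -1.77 ± 0.80 (SE, n = 4; adjusted p 0.702), from arrays at -0.15, -1.46, -2.04 and -3.43. Its arrays in Wobbler over wildtype ran from -1.88 to 5.37. Around the loop, modifier over wildtype was 2.74 indirectly against -1.77 directly, a difference of 4.51 ± 1.47 (SE, adjusted p 0.636). Slc12a5, a potassium and chloride cotransporter, was at 0.25 for modifier over wildtype and 0.35 for modifier over Wobbler. The phosphate transporters were at 0.09 (Slc20a1) and 0.74 (Slc20a2) in Wobbler over wildtype, or 0.14 and 0.46 without replicate 2, and Slc20a1 was at -0.15 in modifier over wildtype. Slc8a2, a sodium and calcium exchanger, was at 0.26 in modifier over Wobbler.

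Carriers of organic ions, bile acids and peptides had 25 of 28 genes tested and 0 passing, with medians of 0.13, 0.086 and 0.043. Slc47a2, which extrudes organic cations in exchange for protons, had the second smallest adjusted p of all carriers in Wobbler over wildtype, 0.0912, at -0.64 ± 0.13 (SE, n = 4). Its arrays were at 0.03, -0.47, -1.02 and -1.08, replicate 1 lying near 0, and in modifier over Wobbler they were at 0.70, 0.91, 0.00 and -0.17. In both comparisons its arrays were split by dye orientation. The prostaglandin transporter Slco2a1 was negative on all arrays of Wobbler over wildtype, at -0.38, -0.26, -0.83 and -0.41 (-0.47 ± 0.13, SE, n = 4; adjusted p 0.158). It was negative on all arrays of modifier over Wobbler as well, at -0.23, -0.15, -0.45 and -0.22, or -0.26, and at 0.07 in modifier over wildtype. Around the loop the indirect ratio of modifier over wildtype was -0.73, a difference of -0.81 ± 0.22 (SE, adjusted p 0.559).

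Of the same class, Slc15a4, a lysosomal transporter of histidine and peptides, had the lowest ratio of all carriers in modifier over Wobbler, -1.46 ± 0.59 (SE, n = 4), from arrays at -0.49, -1.51, -0.64 and -3.22, and 0.82 in modifier over wildtype. Slc15a5 was at 0.46 in modifier over Wobbler. Positive on all arrays of 1 comparison were the urate transporter Slc22a12 (0.56, or 0.36 without replicate 2) and the thyroid hormone transporter Slco1c1 (1.24, with 4.19 on replicate 3) in Wobbler over wildtype. For modifier over wildtype they were the organic anion transporters Slc22a6 (0.43) and Slc22a13 (0.23), and in modifier over Wobbler Slc22a7 (0.43) and Slco2b1 (0.28). Across modifier over wildtype Slco1c1 was at 1.15.

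Among carriers of vitamins, nucleosides, urea and choline, 10 of 11 were tested and 0 passed. Slc29a3, a lysosomal nucleoside transporter, was negative on all arrays of Wobbler over wildtype, at -0.20, -0.72, -1.13 and -0.32 (-0.59 ± 0.16, SE, n = 4; adjusted p 0.153), but its 2 probes gave -1.13 and -0.06. The choline transporter Slc44a1 was at 0.55 in Wobbler over wildtype, or 0.87 without replicate 2, and -0.44 in modifier over wildtype. The urea transporters were at 0.56 (Slc14a2, Wobbler over wildtype, or 0.89 without replicate 2) and 0.21 (Slc14a1, modifier over wildtype), and the nucleoside transporter Slc28a2 was at -0.25 in modifier over wildtype. In modifier over Wobbler Slc23a4 was at 0.26, Slc44a2 at 0.16 and Slc44a4 at -1.03.

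Of the metal carriers 18 of 20 were tested, and 0 passed. Slc30a2, which loads zinc into vesicles, came nearest to the threshold of all carriers: its 3 measured arrays in Wobbler over wildtype were at 0.91, 0.39 and 0.89, a fitted ratio of 0.77 ± 0.14 (SE, n = 3; adjusted p 0.0829). In modifier over wildtype it was negative on all arrays, at -0.28, -0.34, -0.30 and -0.38 (-0.32 ± 0.12, SE, n = 4; adjusted p 0.514, or 0.0459 with array weights), and in modifier over Wobbler it was at -0.06. Around the loop the indirect ratio of modifier over wildtype was 0.71 against -0.32 directly, a difference of 1.03 ± 0.22 (SE, adjusted p 0.438).

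Slc30a5 and Slc30a6, which together load zinc into the early secretory pathway, were at 1.12 and -0.59 in Wobbler over wildtype. For Slc30a5 the ratio came from 4.13 on replicate 2 and was 0.22 without it. For Slc30a6 the 2 probes gave -1.45 and 0.27. The zinc importers were at 0.58 (Slc39a11, Wobbler over wildtype, or 0.14 without replicate 2), 0.15 and 0.36 (Slc39a3, modifier over wildtype and over Wobbler) and 0.32 (Slc39a6, modifier over Wobbler). Of the magnesium transporters, Slc41a2 was at -0.20 for modifier over wildtype, and Slc41a3 was at 0.23 for modifier over Wobbler.

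The Golgi and endoplasmic reticulum carriers of nucleotide sugars and sugar phosphates had 8 of 9 genes tested and 0 passing, with medians of 0.088, -0.079 and 0.20. Slc35a2, which supplies UDP-galactose to the Golgi, was negative on all arrays of Wobbler over wildtype, at -0.09, -0.24, -0.13 and -0.28 (-0.19 ± 0.12, SE, n = 4). For modifier over Wobbler it was at 0.17, -0.01, 0.23 and 0.70 (0.27 ± 0.12, SE, n = 4; adjusted p 0.415), 3 arrays above 0 and 1 just below. For modifier over wildtype Slc35a2 was at 0.11, Slc35a3, which supplies UDP-N-acetylglucosamine, at -0.37 and Slc35a4 at 0.73. The Slc37 genes named by the rule were at -0.36 (Slc37a1, or -0.14 without replicate 2) and 0.40 (Slc37a3) in Wobbler over wildtype and at -0.41 (Slc37a2) and 0.61 (Slc37a3) in modifier over Wobbler.

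The smallest classes gave 0 calls as well. Of 4 tested vesicular carriers, Slc32a1, which fills vesicles with GABA and glycine, was at 0.30, 0.69, 0.69 and -0.20 in modifier over wildtype (0.37 ± 0.16, SE, n = 4) and at -0.28 in Wobbler over wildtype. The monoamine carrier Slc18a2 was at -0.36, 0.29 and 0.17 in the 3 comparisons. Slc17a1 was at 0.28 and Slc17a3 at 0.57 in modifier over Wobbler. Of the 4 fatty acid carriers, Slc27a1 was negative on all arrays of Wobbler over wildtype (-0.29), Slc27a2 was at 0.55 and Slc27a5 at 0.16 in modifier over wildtype, and Slc27a4 had probes at -0.69 and 1.61 in Wobbler over wildtype.

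Of the families outside these classes, Slc45a4 was positive on all arrays of modifier over wildtype, at 0.62, 0.55, 2.45 and 0.30. Its ratio of 0.98 was the highest with 1 sign there. Around the loop its indirect ratio was -1.05, a difference of -2.03 ± 0.71 (SE, adjusted p 0.644). Slc49a4 was positive on all 4 arrays of modifier over wildtype too, at 0.46. Slc66a2, chosen after its values were seen because array weights gave it an adjusted p of 0.0203, was at -1.81, -1.98, 0.06 and -1.64 in modifier over wildtype, 3 arrays low and replicate 3 near 0 (-1.34 ± 0.42, SE, n = 4; adjusted p 0.313). Its 3 probes ran from -4.17 to 0.19 there, the widest range between probes of any carrier in that comparison. Around the loop its indirect ratio was 0.67, a difference of 2.01 ± 0.74 (SE, adjusted p 0.659). The 3 genes that name no transporter had ratios between -0.99 and 0.48 in the 3 comparisons.

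A list of 18 carriers known from germ cells or sperm had 9 members on the arrays, and these were all tested. Of these 9, 0 passed in any comparison. The list's medians were 0.054 for Wobbler over wildtype, 0.094 for modifier over wildtype and 0.19 for modifier over Wobbler. Beside Slc2a3, Slc2a5 and Slc2a8, given above, Slc22a14, which mice need for sperm function, was negative on all arrays of modifier over wildtype, at -0.03, -0.17, -0.45 and -0.82 (-0.37 ± 0.16, SE, n = 4; adjusted p 0.662), and at 0.10, -0.26, -0.25 and -0.17 in modifier over Wobbler. Slc36a3, a testis member of the proton-coupled amino acid carriers, was negative on all arrays of Wobbler over wildtype, at -0.28, -0.14, -1.09 and -0.11, or -0.41, and at 0.12 and 0.19 in the other comparisons.

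Slc22a16, a carnitine transporter of testis and epididymis, was at 0.64 in Wobbler over wildtype, or 0.27 without replicate 2, and its 3 probes ran from -0.08 to 1.20. Slc22a21, a carnitine transporter of mouse testis, was at 0.42 in Wobbler over wildtype, but at -0.07 without replicate 2, and its ratios in the modifier comparisons were 0.09 and 0.00. Slc9a8, a sodium and proton exchanger needed for acrosome formation in mice, was positive on all arrays of modifier over Wobbler, at 0.43, 0.29, 0.23 and 1.27 (0.56 ± 0.27, SE, n = 4), with probes at 0.42 and 0.69. Slc12a2, a sodium, potassium and chloride cotransporter that mouse spermatogenesis requires, was positive on all arrays of modifier over Wobbler too, at 0.24, 0.20, 0.20 and 1.21. Across Wobbler over wildtype Slc12a2 was at -1.26 with 1 array at -4.45, and at -0.20 without it.

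**Figure D4:**
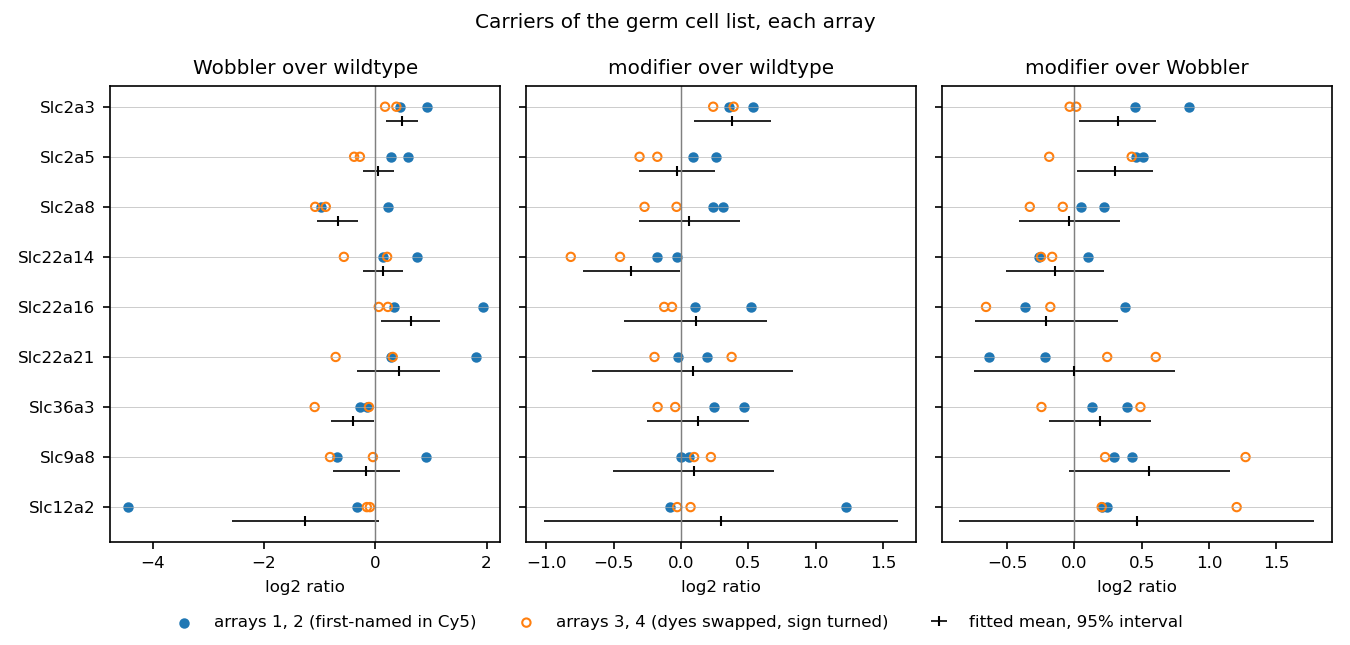
Log2 ratios of the 9 measured carriers known from germ cells or sperm (rows) on each array of the 3 comparisons (panels, whose axes differ in range); filled points are replicates 1 and 2, open points the dye-exchanged replicates 3 and 4, and the black mark is the fitted mean with its unadjusted 95% interval. Slc2a3 is above 0 on all arrays of Wobbler over wildtype and modifier over wildtype, and Slc22a14 below 0 on all arrays of modifier over wildtype.

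Markers of late spermatids were lower in both modifier comparisons, whereas these carriers gave no call. Of 10 markers (Prm1, Prm2, Tnp1, Tnp2, Smcp, Oaz3, Odf1, Akap4, Gapdhs and Pgk2), 7 passed as lower and 0 as higher in modifier over wildtype (median -1.06), 5 as lower and 0 as higher in modifier over Wobbler (median -0.81), and 0 in Wobbler over wildtype (median -0.074). Of 5 tested Leydig cell markers 1 passed as lower in each modifier comparison (medians -0.83 and -0.70). Of 5 Sertoli cell markers 0 passed in any (medians 0.012, -0.12 and -0.016). The other marker lists, of 4 meiotic, 3 spermatogonial, 4 macrophage, 1 epididymal and 2 blood genes tested, had medians between -0.28 and 0.31, with 1 meiotic and 1 macrophage gene lower in modifier over wildtype. The part of such shifts in the carriers' ratios was not tested.

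Of 64 related transport genes outside the rule (carriers with other letters, sideroflexins, porins, carrier import proteins, sodium pump subunits, aquaporins and ABC transporters), 59 were tested and 0 passed in any comparison. Their medians were -0.026, 0.0033 and 0.050. The smallest p in Wobbler over wildtype belonged to Abcd3, a peroxisomal fatty acid transporter, at -1.09 (adjusted p 0.0829), followed by Slc35d3 at 0.56 and Slc35e1 at -0.42. Across modifier over wildtype Aqp11, an intracellular water channel, was at -0.71, -0.49, -0.62 and -0.67 (-0.62 ± 0.14, SE, n = 4; adjusted p 0.0933), Aqp7, a water and glycerol channel of spermatids, at -0.40, and Abce1, a ribosome recycling factor, at -0.39. Across modifier over Wobbler Sfxn4, a mitochondrial sideroflexin, was positive on all arrays, at 2.11, 0.52, 1.64 and 1.47 (1.44 ± 0.30, SE, n = 4; adjusted p 0.0793), with Aqp11 at -0.50 and Slc9b2 at 0.32.

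Different probes of 1 carrier often disagreed. Of 54 carriers with several probes, the probe means had both signs in 26 for Wobbler over wildtype, 30 for modifier over wildtype and 29 for modifier over Wobbler, with median ranges between probes of 0.44, 0.27 and 0.47. The 22 carriers without enough values to test were 15 of plasma membrane families, 6 of other membranes and 1 mitochondrial gene, Slc25a14. Among them were the bicarbonate exchangers Slc4a2 and Slc4a8, the carnitine transporter Slc22a5, the folate transporter Slc19a1, the anion exchangers Slc26a2 and Slc26a4, the glucose transporter Slc5a1 and the glutamine transporters Slc38a3 and Slc38a5; they were chosen for naming after their counts of measured arrays were seen. A missing value here means a blank cell or a spot that held the code described under processing.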

How the data were processed

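The authors deposited 1 log2 ratio per probe and array. The sources used here give neither the scanner nor how background and dye bias were handled. A repeated value on each array, log2 of 100000 above an additive shift, was read as a code and treated as missing. Replicates 3 and 4 were multiplied by -1. Direct and indirect ratios around the loop correlated at -0.016, 0.19 and 0.18 across 14975 probes with this turn and at -0.00026, 0.092 and 0.010 without. Of 20355 probes 14030 had 1 gene symbol (Entrez gene identifiers set against a GRCm38.p6 gene table, which changed 0), 5 several and 6320 none. Probes of a gene were averaged per array; 14729 of 16255 features were tested, 9139 of them named. limma 3.58.1 in R 4.3.3 (lmFit, eBayes) fitted 1 mean per comparison and 1 dye term over all 12 arrays, so an SE uses 1 spread per feature. The fit was tested on simulated data. The number of arrays limits the precision.

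Members and lists were chosen with earlier results of these data known. Named were, per comparison, carriers past the threshold, the 10 highest and 10 lowest with 1 sign on all 4 arrays, the 3 smallest p per class, the germ cell list, and 3 related genes. Alternatives changed centring, scaling, dye term, filter, fit, weights, model, feature, dim spots, sign and arrays.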

Additional observations from a re-analysis of the deposited data

Results flagged for a closer look

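For 16 of 143 gene and comparison groups examined, 1 array stood far from the other 3, relative to the range of the values. Chance alone would flag 1 group in about 20 if the values were unselected and of equal spread. Most of these groups were chosen from the same values, so the rates cannot be compared. On Wobbler over wildtype arrays, replicate 2 stood apart for Slc39a11 (1.85, others 0.032 to 0.32), Slc22a16 (1.93, others 0.064 to 0.33), Slc25a30 (2.54, others 0.015 to 0.10), Slc30a5 (4.13, others -0.23 to 0.50) and Slc12a2 (-4.45, others -0.33 to -0.096). These 5 lie on the array with the widest spread of deposited ratios. Replicate 1 stood apart for Slc2a8 (0.23, others -1.08 to -0.89) and Slc25a1 (-0.33, others -0.47 to -0.46), replicate 3 for Slco1c1 (4.19, others 0.039 to 0.64) and replicate 4 for Slc16a9 (-0.019, others -0.38 to -0.35).

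In modifier over wildtype replicate 3 stood apart for Slc45a4 (2.45, others 0.30 to 0.62) and Slc27a2 (-0.46, others 0.78 to 0.96), and replicate 1 for Slc12a2 (1.23, others -0.082 to 0.071). In modifier over Wobbler replicate 4 stood apart for Slc12a2 (1.21, others 0.20 to 0.24) and Slc18a2 (-0.64, others 0.41 to 0.46), and replicate 3 for Slc25a44 (-0.21, others -0.12 to -0.10) and Slc2a5 (-0.19, others 0.42 to 0.51). Slc12a2 had 1 such array in each of the 3 comparisons.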

How the results depend on the processing

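The count of carriers called stayed at 0 under most alternatives. In modifier over wildtype it was 2 with arrays scaled to equal spread, 5 with array weights and 1 with 2 genotype coefficients for the whole loop, and in modifier over Wobbler 2 with 2 genotype coefficients. Over all features these settings called 439, 709 and 224 in modifier over wildtype, against 108, and 207 in modifier over Wobbler, against 61. Leaving out single arrays gave 0 to 1 in Wobbler over wildtype (1 without its replicate 1) and 0 in both modifier comparisons. With the replicate block, the number in the titles in place of the dye term, the counts were 0, 0 and 0 and 22, 58 and 24 over all features, against 45, 108 and 61. Deviations of same-numbered arrays from their comparison means correlated with r between -0.025 and 0.079. These deviations still held the dye effect, so they do not settle whether same-numbered arrays shared pools. Without a dye term the counts over all features were 24, 46 and 7, and when single arrays were left out they ranged over 18 to 54, 19 to 163 and 6 to 137. With no array turned and with each comparison fitted alone they were 0. With no array turned, with each comparison fitted alone and with single probes the counts of carriers were 0.

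The Slc25 minus plasma membrane median ranged from -0.038 to 0.11 (Wobbler over wildtype), -0.069 to -0.022 (modifier over wildtype) and -0.10 to 0.065 (modifier over Wobbler) when single arrays were left out; the lowest and highest of the last came without its replicates 2 and 4. It moved to -0.13 in modifier over Wobbler with 2 genotype coefficients. Of 151 named results, 11 passed in at least 1 alternative and 86 changed sign in at least 1, 72 of them with no array turned; no named result was called in the main analysis or called with the opposite sign in an alternative. The cause was not tested.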
